A study of Mus musculus with 27 samples.

Results

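The nuclear genes for the subunits of the mitochondrial respiratory chain and of ATP synthase were followed by complex in the whole fetal brain of the mouse. They were taken from the gene table by their symbols, as Nduf genes (complex I), Sdh genes (complex II), Uqcr genes and Cyc1 (complex III), Cox genes from Cox4 to Cox8 (complex IV) and Atp5 genes (complex V, ATP synthase). Of the 55416 genes of the table, 91 met this rule, with 41 in complex I, 4 in complex II, 9 in complex III, 19 in complex IV and 18 in complex V. A rule by symbol leaves out Ndufab1, a complex I subunit, and counts Ndufa4 with complex I although the protein is now assigned to complex IV. RNA was sequenced from the inbred strains C57BL/6J and AKR/J and from B6.Cg-Cav1tm1Mls/J, a congenic line without Cav1 in any tissue that is called Cav1-null here, to set a long-lived strain beside 2 short-lived ones. Brains came from gestation days 12, 15 and 17 (d12, d15 and d17), with the day of the vaginal plug as day 1. The labels give every fetus as female, from a PCR assay. The 9 groups, by strain and by day, had 3 libraries each, made from polyadenylated RNA, and nothing states whether fetuses of a group shared a litter, so that a p-value measures only the spread between these libraries.

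The respiratory chain passes electrons from NADH (complex I) and succinate (complex II) through ubiquinone to complex III, and from there by cytochrome c to complex IV, which reduces oxygen. Complexes I, III and IV pump protons across the inner mitochondrial membrane, and complex V makes ATP from the return flow. Complexes I, III, IV and V are built from subunits of the mitochondrial and the nuclear genome, whereas complex II is encoded by the nucleus alone and also works in the tricarboxylic acid (TCA) cycle. In the developing brain, neurons come to rely on this chain as progenitors that use much glycolysis give way to them.

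The libraries held from 26363697 to 39759702 reads assigned to genes (median 29700746). Levels are given as CPM, read counts scaled by TMM to a common library size. Cav1 was at 0 to 0.509 CPM in the Cav1-null libraries, at 9.25 to 34.2 CPM in AKR/J and at 10.4 to 39.9 CPM in C57BL/6J, which matches the label of Cav1-null and does not tell the other strains apart. Neuronal markers, such as Tubb3 and Stmn2, summed to 2030 to 8360 CPM, and every neuronal marker listed was tested in each comparison. Libraries 1 and 3 of AKR/J on d12 stood apart. Erythroid markers summed to 102000 and 198000 CPM there and to 33300 CPM in library 2, and ribosomal protein genes to 250000 and 208000 against 66500 CPM. Yolk sac endoderm markers summed to 2040 CPM in library 1, against 270 and 55.9 CPM in the others, and trophoblast markers to 861 CPM, against 89.5 and 69.6 CPM. Library 2 of this group also lay above all libraries of the other groups, which reached 18600 CPM of erythroid markers and 46600 CPM of ribosomal protein genes. Library 2 of C57BL/6J on d17 also differed from its group, with 37500 CPM of mitochondrially encoded subunits against 14600 and 21100 CPM. Over all genes, library 1 of this group differed from library 3 about as much as library 2 did (chi-square over degrees of freedom 68.3 and 69). The main results of AKR/J on d12 are also given without libraries 1 and 3, a fit added after seeing the data in which this group has 1 library, whose spread is assumed to be that of the other group compared. Counts on d17 that library 2 of C57BL/6J decides are given without it. In whole brain, fewer cells of a type and less RNA per cell cannot be told apart.

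Of the 91 members, 81 passed the filter on low counts in every comparison, with 37 of complex I, all 4 of complex II and all 9 of complex III, 14 of complex IV and 17 of complex V. The other 10 passed in none and did not exceed 0.661 CPM in any library. Among them were Cox6a2, Cox7b2, Cox8b, Cox8c and Cox6c2, isoforms known from muscle, testis or other tissues, Ndufa11b, Ndufb11b, Ndufb4c and Ndufs6b, and a second gene identifier of Atp5o without a read. The median level over all libraries ran from 0.905 CPM for Cox7a1 to 609 CPM for Atp5b among the members tested.

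Summed over its members, complex I stood at 8890, 3000 and 8670 CPM in the libraries of AKR/J on d12, at 2030 to 2190 CPM on d15 and at 2200 to 2780 CPM on d17. In C57BL/6J the sums were 1740 to 2040, 1470 to 1640 and 1630 to 2340 CPM on these days, and in Cav1-null 2340 to 2800, 2520 to 2760 and 2040 to 2410 CPM. By group mean, C57BL/6J on d15 was the lowest of the 9 groups for complexes I, III, IV and V, and AKR/J on d12 the highest. Relative to its lowest group mean, complex IV had the widest range, from 1010 ± 85.3 CPM (SD, n = 3) in C57BL/6J on d15 to 6160 ± 3370 CPM in AKR/J on d12. Complex II varied least, with means from 379 ± 15 CPM in Cav1-null on d17 to 506 ± 112 CPM in AKR/J on d12, and its sums in AKR/J on d12 overlapped those of d15. The plot of summed levels shows library 2 as the lowest of AKR/J on d12 for each complex.

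**Figure D1:**
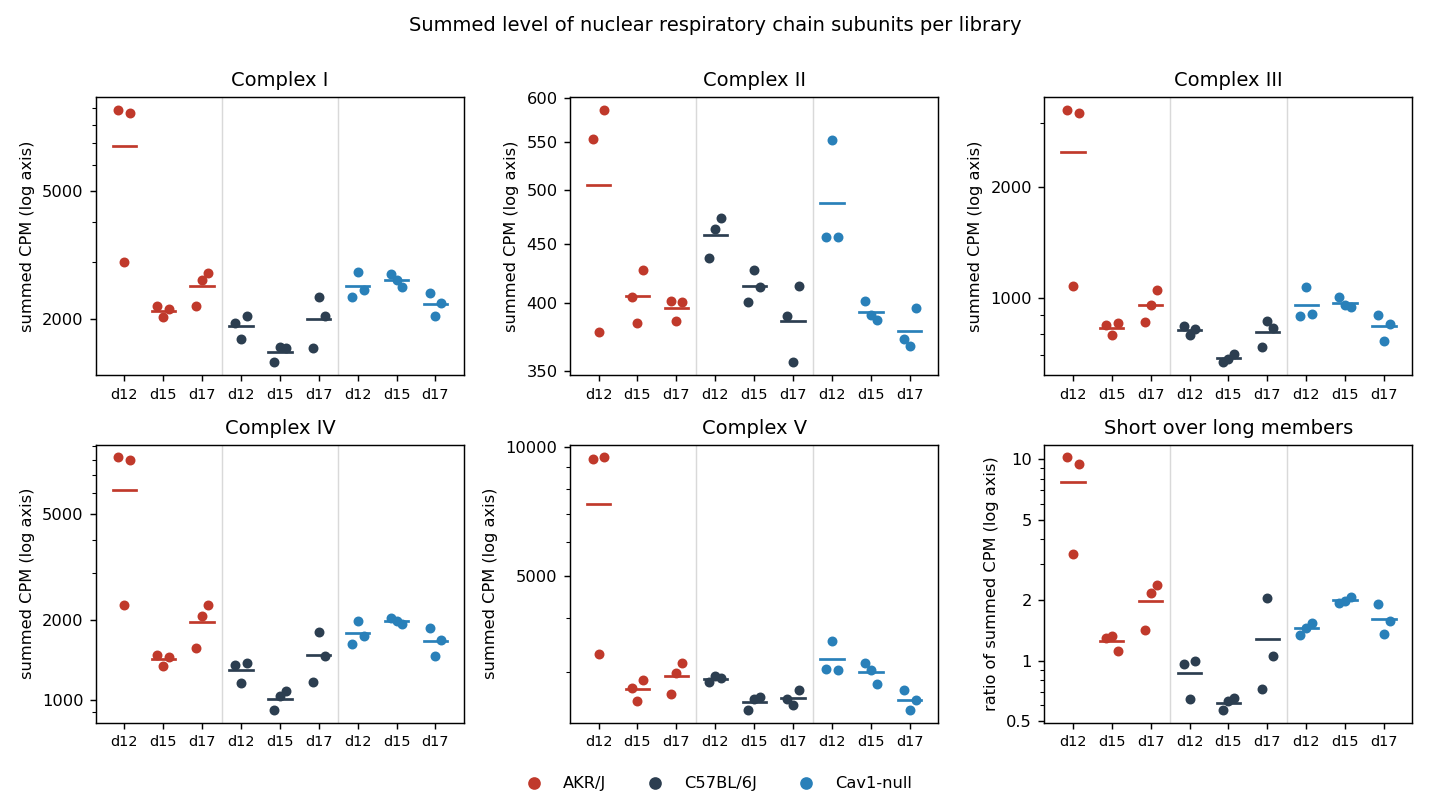
Summed CPM of the members of each complex (log axes) in the 27 libraries, and the ratio of the summed CPM of short to long members, by strain and day, with a point per library and a short line at the mean of 3. Libraries 1 and 3 of AKR/J on d12 lie far above all others for complexes I, III, IV and V, whereas complex II stays between 356 and 586 CPM in all libraries.

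Promoters of the members were searched for motifs of the factors best known to control these genes, and 4 are shown because their genes carry the results that follow: Atp5md, the member with the largest fold change between strains, Sdha, which moved against most of the others, and Atp5o and Cox6b1, the members called in an interaction. The RefSeq promoter table (GRCm38.p6) matched 70 members, each with 250 bases before and 50 bases after the start. The core of NRF1 (GCGCATGC) was found in 10 of 70 (14.3%) and in 3.05% of all 27025 genes of the table, and the ETS core that GABP binds (CCGGAAG) in 17 (24.3%) against 9.93%. The YY1 core (AAGATGGCG) was found in 7 (10%) against 1.64%, and the ERR core (AAGGTCA) in 8 (11.4%) against 5.38%. Both strands were searched for exact matches, and a match describes the letters only. By complex, the ETS core was in 4 of 33 promoters of complex I, 2 of 3 of complex II, 2 of 5 of complex III, 3 of 13 of complex IV and 6 of 16 of complex V. The windows below hold 120 bases before and 30 bases after the start, 5′ to 3′ on the minus strand, and capitals mark an ETS core read on the other strand. They lie at chr19:47090618-47090767 (Atp5md), chr13:74350211-74350360 (Sdha), chr16:91931601-91931750 (Atp5o) and chr7:30626085-30626234 (Cox6b1), and those of Sdha and Atp5o hold none of these motifs.
Atp5md: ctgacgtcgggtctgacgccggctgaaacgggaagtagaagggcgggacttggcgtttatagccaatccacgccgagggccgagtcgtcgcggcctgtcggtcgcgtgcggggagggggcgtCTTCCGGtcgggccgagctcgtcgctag
Sdha: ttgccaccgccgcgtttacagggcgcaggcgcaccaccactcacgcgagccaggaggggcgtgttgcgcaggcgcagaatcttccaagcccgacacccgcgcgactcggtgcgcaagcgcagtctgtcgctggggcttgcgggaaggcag
Atp5o: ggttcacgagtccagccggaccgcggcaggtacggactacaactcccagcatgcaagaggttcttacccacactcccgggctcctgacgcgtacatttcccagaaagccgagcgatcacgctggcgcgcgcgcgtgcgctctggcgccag
Cox6b1: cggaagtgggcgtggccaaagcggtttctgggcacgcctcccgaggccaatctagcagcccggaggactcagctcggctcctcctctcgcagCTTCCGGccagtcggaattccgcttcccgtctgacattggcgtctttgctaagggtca

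In the early phase (d12 to d15), respiratory chain genes fell in AKR/J and C57BL/6J and moved in both directions in Cav1-null. In AKR/J, 55 of 81 members fell and 0 rose, where 14.0% of all genes tested were lower and 14.8% were higher on d15. They were 27 of complex I, 1 of complex II, 5 of complex III, 11 of complex IV and 11 of complex V. The median log2 fold change was -1.54 in complex I, -0.31 in complex II, -2.14 in complex III, -1.68 in complex IV and -1.24 in complex V, against 0.02 over all genes. Without library 3 or 1 of d15 the count was 33 and 36 (12.4% and 13.7% of all genes). Without libraries 1 and 3 of d12, 33 members were called lower and 3 were called higher (14.1% of all genes in either direction), and the medians were -0.51, 0.06, -0.69, -0.47 and -0.33. As 1 library then stood for AKR/J on d12, the spread in this fit came from d15 alone. With library sizes alone as the scaling, the median of complex II turned to 0.19, while the median of all genes moved to 0.46, and 6 members were then called higher and 45 lower. In C57BL/6J, 19 members fell and 0 rose (7.8% of all genes lower, 7.08% higher), with medians from -0.46 in complex V to -0.38 in complex II. This count depends on single libraries, as it was 56 without library 2 of d12 (29.8% of all genes), 12 without library 3 (16.5%), and 0 without library 1 of d12 (1.67%) or without any of the d15 libraries (0.0% to 0.0303%), and 1 in a single model of all 27 libraries (16.3%). In Cav1-null, 8 members rose (11.6% of all genes) and 6 fell (11.8%). The risers were small subunits such as Ndufb2 and Cox7a2, and 3 of the 6 that fell, Sdha, Sdhc and Sdhd, belonged to complex II. The count of 14 became 22 without library 3 of d12 (35.9% of all genes), 6 without library 1 (14.3%), 2 or 3 without any of the d15 libraries (11.2% to 12.3%), and 3 in the single model (13.1%). In all of these fits a smaller share of the members than of all genes was called. Erythroid markers fell as well in AKR/J (12 of 14) and C57BL/6J (3 of 13), as did ribosomal protein genes (74 of 80 and 61 of 78), and neuronal markers rose (8 and 5 of 12). Neural progenitor markers fell in 7, 7 and 10 of 12, and glial markers rose in 5, 3 and 2 of 11, in AKR/J, C57BL/6J and Cav1-null. The summed glial markers of AKR/J nevertheless stood at 2410, 972 and 2870 CPM on d12 and at 810 to 1040 CPM on d15. Markers of yolk sac endoderm fell in 7 of 10 and of trophoblast in 5 of 7 in AKR/J. Without libraries 1 and 3 of d12, 10 of 14 erythroid, 8 of 10 yolk sac endoderm and 3 of 8 trophoblast markers and 63 of 80 ribosomal protein genes were lower on d15, 7 of 12 progenitor markers were lower, and 8 of 12 neuronal and 3 of 11 glial markers were higher. The part of these lists in the result was not tested.

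In the late phase (d15 to d17), members rose in AKR/J and C57BL/6J and fell in Cav1-null. In AKR/J, 21 members rose (11.6% of all genes) and 2 fell (10.4%), the latter being Sdha (-0.37 ± 0.1, adjusted p = 0.0315) and Atp5a1 (-0.35 ± 0.1, adjusted p = 0.0424). The median was 0.29 in complex I, 0.02 in complex II, 0.35 in complex III, 0.39 in complex IV and 0.19 in complex V. The count of 23 became 41 without library 1 of d17 (20.1% of all genes), 2 without library 2 (7.58%), 4 without library 3 (8.32%), 13 and 11 without library 1 and 3 of d15 (15.1% and 17.9%), and 2 in the single model of 27 libraries (10.2%). In C57BL/6J, 15 members rose (7.46% of all genes) and 0 fell (5.58%), namely 6 of complex I and 3 each of complexes III, IV and V. It was 13 without library 2 of d17, which had stood apart (13.6% of all genes), 58 without library 1 of d17 (33.2%), 0 without library 3 of d17 (0.767%) or without any of the d15 libraries (1.29% to 3.79%), and 4 in the single model (19.6%). In Cav1-null, 38 members fell (12.8% of all genes) and 0 rose (14.5%), with 21 of complex I, 0 of complex II, 2 of complex III, 5 of complex IV and 10 of complex V. The median of complex V was -0.36 and that of complex II -0.03. In the single model of 27 libraries none of these 38 calls was made (3.56% of all genes were called), with medians of -0.36 and -0.03. When 1 library was left out, between 19 and 45 members were called, with 19 without library 2 of d15 (18.9% of all genes), 20 without library 2 of d17 (21.0%), 21 without library 1 of d15 (21.2%) or library 3 of d17 (20.7%), and 45 without library 1 of d17 (25.5%). Among the marker lists, neural progenitor markers fell in 11, 9 and 11 of 12 in AKR/J, C57BL/6J and Cav1-null, with summed means from 1530, 1990 and 938 CPM on d15 to 673, 679 and 513 CPM on d17. Glial markers rose in 4, 3 and 10 of 11 and neuronal markers in 3, 3 and 7 of 12, in this order of strains. Ribosomal protein genes fell in 71 of 79 in Cav1-null and rose in 5 of 79 in AKR/J, and erythroid markers fell in 6 of 13 in Cav1-null, and rose in 5 and fell in 4 of 13 in AKR/J and rose in 6 and fell in 3 of 13 in C57BL/6J. The part of these lists in the late changes was not tested.

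AKR/J was compared with C57BL/6J on each day, and Cav1-null with the same C57BL/6J libraries, so that the comparisons of a day share their controls. On d12, 59 members were higher in AKR/J (14.5% of all genes) and 2 were lower (14.1%). The median difference was 1.84 in complex I, 0.28 in complex II, 2.32 in complex III, 1.85 in complex IV and 1.29 in complex V on the log2 scale. Without libraries 1 and 3 of AKR/J the medians were 0.79, -0.10, 0.95, 0.62 and 0.41. This fit sets 1 AKR/J library against 3 of C57BL/6J, which alone give the spread, and called 0.0416% of all genes and no member, with 47 members and 19.0% of all genes at an unadjusted p under 0.05. No member was called without library 2 of C57BL/6J (0.122% of all genes) and between 36 and 38 without library 1 or 3 of AKR/J or library 1 of C57BL/6J (6.8% to 8.0%). Ribosomal protein genes were higher in 75 of 80, erythroid markers in 12 of 14, yolk sac endoderm markers in 6 of 10 and trophoblast markers in 3 of 8, and neuronal markers were lower in 5 of 12. Without libraries 1 and 3 the medians of the first 4 lists were 1.33, 2.70, 4.56 and -1.75, against 2.79, 3.54, 6.62 and 1.43 with them, and none of their genes was called higher. Their part was not tested. With library sizes alone, the median of complex II turned to -0.18. On d15, 58 members were higher in AKR/J (18.8% of all genes) and 5 were lower (22.3%), and between 54 and 65 were called when any library was left out (28.2% to 37.9% of all genes), and 21 in the single model of 27 libraries (22.5% of all genes). The medians were 0.67, 0.28, 0.64, 0.43 and 0.65 in complexes I to V, against 0.06 over all genes. The 5 lower members were Ndufv1, Sdha, Uqcrc1, Atp5a1 and Atp5b, which are catalytic or core subunits with long coding sequences. Ribosomal protein genes were higher in 70 of 79 and lower in 2 on d15, with 32600 ± 2650 CPM in AKR/J and 17800 ± 235 CPM in C57BL/6J (SD, n = 3). Of the markers, 7 of 13 erythroid ones were higher and 1 was lower, 5 of 12 neuronal ones were lower, 5 of 11 glial and 8 of 12 vessel and microglia markers were lower, with 1 and 2 higher, and neural progenitor markers were divided, with 3 higher and 4 lower of 12. Their part in the d15 difference was not tested. On d17, edgeR called 0 members higher (0.381% of all genes) and 0 lower (0.361%), with 22 at an unadjusted p under 0.05 (21.2% of all genes) and 2 called by DESeq2 (5.71%). Without library 2 of C57BL/6J on d17, edgeR called 42 members and 26.4% of all genes.

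In Cav1-null against C57BL/6J, the respiratory chain differed most on d15. On that day, 63 members were higher in Cav1-null (26.8% of all genes) and 7 were lower (31.8%), and between 68 and 71 were called when any library was left out (49.8% to 53.7% of all genes). The higher members were 30 of complex I, 2 of complex II, 6 of complex III, 11 of complex IV and 14 of complex V, with medians of 0.98, 0.17, 1.20, 0.89 and 0.87 over each complex, against 0.03 over all genes. The lower members were Ndufv1, Sdha, Uqcrc1, Cyc1, Atp5a1, Atp5b and Atp5d. Among the 11 not called were the complex I core subunits Ndufs1, Ndufs3 and Ndufs7, the Rieske protein Uqcrfs1 and Cox5a. On d12, edgeR called 0 members in either direction and no gene at all (0.0% higher and 0.0% lower), with 56 members at an unadjusted p under 0.05 (22.1% of all genes) and 32 called by DESeq2 (8.98%). Without library 3 of C57BL/6J on d12, edgeR called 19 members (7.37% of all genes), and on d17, without library 2 of C57BL/6J, it called 8 (13.6%). On d17, edgeR called 0 members higher (0.00491% of all genes) and 0 lower (0.0442%), with 0 at an unadjusted p under 0.05 (7.55% of all genes) and 0 by DESeq2 (0.221%). The medians on d17 ran from 0 in complex II to 0.19 in complex III. Several marker lists moved with the d15 difference, with 74 of 79 ribosomal protein genes and 6 of 13 erythroid markers higher in Cav1-null, 10 of 12 neural progenitor, 7 of 12 neuronal, 7 of 11 glial and 8 of 12 vessel and microglia markers lower, and their part was not tested. The ribosomal protein genes summed to 42300 ± 1210 CPM in Cav1-null and 17800 ± 235 CPM in C57BL/6J, the neuronal markers to 6210 ± 38.8 and 7680 ± 513 CPM, the progenitor markers to 938 ± 12.7 and 1990 ± 152 CPM, and the erythroid markers to 3380 ± 387 and 975 ± 121 CPM (SD, n = 3). The glial markers summed to 1160 ± 38.9 and 876 ± 89.9 CPM, higher in Cav1-null although 7 of 11 were lower.

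**Figure D2:**
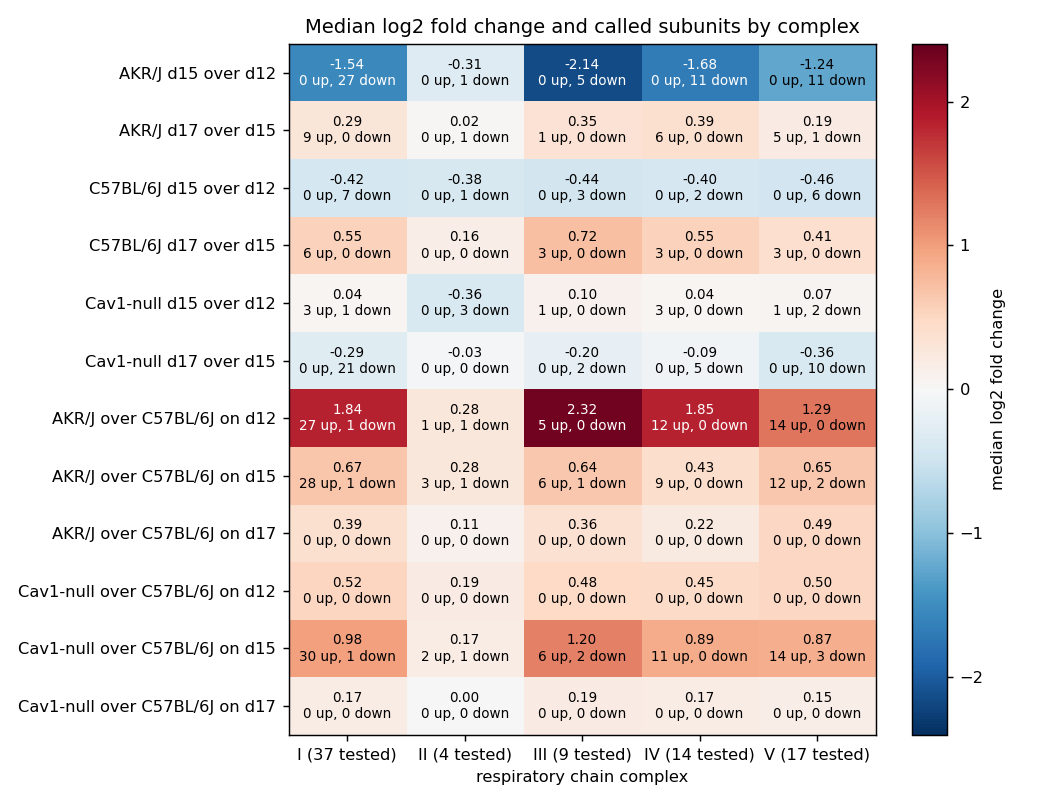
Median log2 fold change of the tested members of each complex (columns) in the 6 changes between days and the 6 comparisons with C57BL/6J (rows), as colour and number, with the number of members called higher (up) and lower (down). Complex II is nearest to 0 in every comparison other than that of Cav1-null from d12 to d15, and the medians of the other complexes share their sign in each comparison.

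An interaction over 12 libraries tested if strains differed in their change from day to day. For the early AKR/J phase against C57BL/6J, edgeR called 0 members (0.0711% of all genes), with 56 at an unadjusted p under 0.05 (16.3% of all genes) and 36 by DESeq2 (4.43%), and 62 without library 2 of AKR/J on d12 (14.8% of all genes). It called 42 in the single model of 27 libraries (7.12%), and 0 without libraries 1 and 3 of AKR/J on d12 (0.017%), where this group had 1 library. For the late AKR/J phase it called 0 members (0.00468%), with 0 at an unadjusted p under 0.05 (7.57% of all genes) and 0 by DESeq2 (0.187%). For the early Cav1-null phase it called 0 members (0.00472%), with 45 at an unadjusted p under 0.05 (15.0% of all genes) and 20 by DESeq2 (2.02%), and 34 without library 2 of C57BL/6J on d12 (7.3% of all genes). For the late Cav1-null phase it called 2 members (0.252%), Atp5o and Cox6b1, with 60 at an unadjusted p under 0.05 (21.9% of all genes) and 44 by DESeq2 (6.03%). This count was 57 without library 1 of C57BL/6J on d17 (26.1% of all genes) and 9 without library 2 of that group (0.474%), and 0 without any other library. For all other members, a difference between the late phases of Cav1-null and C57BL/6J did not pass this test.

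Cox6b1, a subunit of complex IV at the contact of its dimer, lies on chromosome 7 from 30316282 to 30325616 (GRCm39). It stood at 80.5, 89.9 and 91.4 CPM in C57BL/6J on d15 and at 102, 146 and 130 CPM on d17. In Cav1-null it stood at 192, 186 and 191 CPM on d15 and at 153, 131 and 139 CPM on d17. The days did not overlap in either strain, and the level was higher on d17 in C57BL/6J and lower in Cav1-null. The changes were 0.59 ± 0.15 (log2 fold change ± SE, adjusted p = 0.0435) and -0.43 ± 0.07 (adjusted p = 0.000917), and their difference was -1.05 ± 0.17 (adjusted p = 0.0341). Atp5o, the OSCP subunit that links the stalk of ATP synthase to its catalytic head, lies on chromosome 16 from 91720317 to 91728575. It stood at 16.8, 16.7 and 16.9 CPM in C57BL/6J on d15 and at 21.5, 24.6 and 20.5 CPM on d17, and in Cav1-null at 32.9, 31.7 and 32.6 CPM and then at 26.5, 21.9 and 25.1 CPM. Again no library of d15 overlapped with d17 in either strain. The difference between the changes was -0.89 (adjusted p = 0.0341), and only the fall in Cav1-null was called on its own (-0.40, adjusted p = 0.00619, against 0.46, adjusted p = 0.0522, in C57BL/6J). These calls were lost in 1 model of all 27 libraries, where the adjusted p was 0.232 for Atp5o and 0.25 for Cox6b1, with the replicate number as a block (0.085 for both), with offsets for coding length and GC content (0.0691 for both), and when any library other than library 1 or 2 of C57BL/6J on d17 was left out.

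Within complex II, the catalytic subunits Sdha and Sdhb differed from C57BL/6J in opposite directions on d15. Sdha, the flavoprotein that oxidizes succinate, lies on chromosome 13 from 74469359 to 74498436. It stood at 172, 192 and 176 CPM in C57BL/6J on d15, at 106, 103 and 130 CPM in AKR/J and at 91.3, 95.9 and 81.7 CPM in Cav1-null. All libraries of the other strains were below those of C57BL/6J, at -0.61 ± 0.09 (adjusted p = 0.0016) in AKR/J and -0.96 ± 0.07 (adjusted p = 9.93e-07) in Cav1-null. Sdhb, the iron-sulfur subunit beside it, lies on chromosome 4 from 140688502 to 140709380. It stood at 78.9, 85.2 and 87.3 CPM in C57BL/6J on d15, at 128, 113 and 124 CPM in AKR/J and at 150, 133 and 144 CPM in Cav1-null. Here all libraries of the other strains were above those of C57BL/6J, by 0.61 ± 0.07 (adjusted p = 0.000478) and 0.80 ± 0.06 (adjusted p = 1.92e-06).

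Sdhb has 846 and Sdha 1992 coding bases, and the part of length in the ratio of their reads was not tested. This ratio of Sdhb to Sdha, not corrected for length, was 0.466 ± 0.0269 in C57BL/6J on d15, 1.09 ± 0.124 in AKR/J and 1.60 ± 0.19 in Cav1-null (SD, n = 3). In C57BL/6J on d17 it ran from 0.475 to 1.39, with the highest value in library 2, and overlapped with Cav1-null (1.02 to 1.42) but not with AKR/J (1.5 to 1.72). Without library 2, C57BL/6J reached 0.85 and did not overlap with Cav1-null. In the early Cav1-null phase, Sdha fell by 0.55 (SE 0.1, adjusted p = 0.00464), while Sdhb was at -0.07 (adjusted p = 0.7). In that of AKR/J, Sdhb fell by 0.84 (SE 0.25, adjusted p = 0.036), while Sdha was at 0.26 (adjusted p = 0.264). Without libraries 1 and 3 of AKR/J on d12, Sdhb was at -0.18 (adjusted p = 0.35) and Sdha at 0.44 (adjusted p = 0.135). The membrane anchors Sdhc and Sdhd were called higher in AKR/J on d15, at 0.17 ± 0.05 (adjusted p = 0.0305) and 0.40 ± 0.06 (adjusted p = 0.0018). In Cav1-null on d15 Sdhd was higher by 0.31 ± 0.06 (adjusted p = 0.000904) and Sdhc was at 0.04 (adjusted p = 0.535).

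The accessory subunits of complex I named here are the called members with the largest change of a phase. Ndufa4, counted here by its name, stood at 1450, 362 and 1410 CPM in AKR/J on d12 and at 146 to 153 CPM on d15, without overlap. It fell by 2.89 (SE 0.49, adjusted p = 0.00491) in this early phase and by 0.57 (SE 0.15, adjusted p = 0.0492) in that of C57BL/6J, where it rose again in the late phase by 0.97 ± 0.25 (adjusted p = 0.0464). The early AKR/J value was -1.30 (adjusted p = 0.00888) without libraries 1 and 3 of d12. On d15 it stood at 72.8, 84.7 and 82.7 CPM in C57BL/6J and at 225, 213 and 215 CPM in Cav1-null, a difference of 1.49 ± 0.06 (adjusted p = 4.14e-08). Ndufb1, an accessory subunit of the membrane arm, fell by 3.14 (SE 0.53, adjusted p = 0.00488) in the early AKR/J phase, and was at -1.30 (adjusted p = 0.00969) without these libraries. It had the largest difference of complex I between Cav1-null and C57BL/6J on d15, 1.84 ± 0.14 (adjusted p = 1.49e-06). Ndufa2, of the matrix arm, fell in the early C57BL/6J phase by 0.79 (SE 0.17, adjusted p = 0.0321), from 55.3, 40.4 and 57.1 CPM to 27, 31.4 and 33.5 CPM. It fell in the late Cav1-null phase by 0.58 (SE 0.09, adjusted p = 0.000359), from 80, 80.5 and 74 CPM to 57.9, 45.1 and 52.9 CPM. Ndufb9 rose in the late AKR/J phase by 0.61 ± 0.12 (adjusted p = 0.0103), and Ndufb2 rose in the early Cav1-null phase by 0.45 ± 0.11 (adjusted p = 0.0194).

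The core subunits of complex I carry flavin and iron-sulfur clusters. Ndufv1, which binds NADH, stood at 90.6, 98.7 and 98.1 CPM in C57BL/6J on d15 and at 63.3, 61.9 and 57 CPM in Cav1-null, lower, at -0.62 ± 0.06 (adjusted p = 1.02e-05). In AKR/J it was lower on d15 at -0.42 ± 0.08 (adjusted p = 0.00367) and on d12, at -0.58 ± 0.18 (adjusted p = 0.0404), a value of -0.52 (adjusted p = 0.275) without libraries 1 and 3 of AKR/J. With an adjustment for coding length and GC content, no member of complex I was called lower in Cav1-null on d15 or in AKR/J on d12. Ndufs1, the largest iron-sulfur subunit, was called in 2 comparisons with small changes, -0.33 ± 0.09 in the early Cav1-null phase (adjusted p = 0.0251) and 0.20 ± 0.06 in AKR/J against C57BL/6J on d15 (adjusted p = 0.0399). The core subunits Ndufv2 and Ndufs8 were at higher levels in Cav1-null on d15. Ndufv2 stood at 163, 152 and 158 CPM there and at 68.9, 74.3 and 73.9 CPM in C57BL/6J. Ndufs8 stood at 60.8, 54.7 and 60.9 CPM and at 34.5, 35.8 and 35.9 CPM in these groups.

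Complex III holds the small subunits Uqcrb, Uqcrh, Uqcrq and Uqcr10 beside its core. Uqcrb, which lies near the ubiquinone sites, stood at 458, 101 and 462 CPM in AKR/J on d12 and at 50.3, 50.4 and 51.8 CPM on d15. It fell by 2.79 (SE 0.51, adjusted p = 0.00642) there, and was at -1.0 (adjusted p = 0.00977) without libraries 1 and 3 of d12. Uqcrb rose in the early Cav1-null phase by 0.31 ± 0.1 (adjusted p = 0.0474) and fell in its late phase by 0.36 (SE 0.09, adjusted p = 0.0116). Uqcr10 fell in the early C57BL/6J phase by 0.75 (SE 0.18, adjusted p = 0.038) and rose in the late phase by 0.88 ± 0.21 (adjusted p = 0.0365), with 39.7, 73 and 54.1 CPM on d17 and 27.3 to 34.9 CPM on d15. Uqcrq rose in the late AKR/J phase by 0.49 ± 0.12 (adjusted p = 0.0211). Uqcrh, the hinge protein that docks cytochrome c, fell in the late Cav1-null phase by 0.44 (SE 0.11, adjusted p = 0.00902) and was higher in Cav1-null on d15 by 1.46 ± 0.06 (adjusted p = 4.36e-08). The core protein Uqcrc1 was lower on d15 in Cav1-null at -0.52 ± 0.06 (adjusted p = 4.22e-05) and in AKR/J at -0.37 ± 0.07 (adjusted p = 0.00445), and with an adjustment for coding length and GC content these values turned to 0.06 and 0.03. Cyc1, cytochrome c1, was lower in Cav1-null on d15 at -0.28 ± 0.07 (adjusted p = 0.00747), and at 0.07 with that adjustment. The core protein Uqcrc2 was at a higher level in Cav1-null on d15, with 144, 139 and 149 CPM, against 104, 106 and 102 CPM in C57BL/6J. Uqcrfs1 was called in no comparison.

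In complex IV, Cox6c, a small membrane subunit, stood at 1670, 383 and 1770 CPM in AKR/J on d12 and at 152 to 160 CPM on d15, and fell by 3.07 (SE 0.53, adjusted p = 0.00521), with -1.31 (adjusted p = 0.00901) without libraries 1 and 3 of d12. On d15 it stood at 77.8, 85.5 and 91.1 CPM in C57BL/6J, with all AKR/J libraries above it (0.95 ± 0.08, adjusted p = 0.000229) and all Cav1-null libraries, at 243 to 271 CPM, above both (1.62 ± 0.07 over C57BL/6J, adjusted p = 4.05e-08). Cox7a2, the isoform of subunit 7a found in most tissues, rose in the late AKR/J phase by 0.76 ± 0.13 (adjusted p = 0.00535) and in the early Cav1-null phase by 0.49 ± 0.11 (adjusted p = 0.0131), from 126, 158 and 127 CPM to 191, 177 and 209 CPM. Cox7c fell in the early C57BL/6J phase by 0.73 (SE 0.19, adjusted p = 0.0425) and in the late Cav1-null phase by 0.57 (SE 0.09, adjusted p = 0.000367). Cox8a rose in the late C57BL/6J phase by 0.61 ± 0.14 (adjusted p = 0.0345). Of the subunits that join the mitochondrially encoded core early in assembly, Cox4i1 was higher in Cav1-null on d15 by 0.67 ± 0.07 (adjusted p = 9.03e-06), and Cox5a was called in no comparison.

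In complex V, Atp5md (also Atp5mk), a small membrane subunit of ATP synthase on chromosome 19 from 47071822 to 47079143, had the largest fold change of all members in the early AKR/J phase and in AKR/J against C57BL/6J on d12. It stood at 1240, 254 and 1270 CPM in AKR/J on d12, and at 82.7, 59 and 78.8 CPM in C57BL/6J, without overlap (3.78 ± 0.58, adjusted p = 0.0115). This difference was 1.89 ± 0.26 without libraries 1 and 3 of AKR/J and was not called (adjusted p = 0.167). On d15 it stood at 100, 96 and 94.4 CPM in AKR/J, 42.4, 55 and 52.3 CPM in C57BL/6J and 164, 169 and 150 CPM in Cav1-null, so that the strains did not overlap. The difference from C57BL/6J was 1.03 ± 0.1 (adjusted p = 0.000373) in AKR/J and 1.73 ± 0.09 (adjusted p = 1.06e-07) in Cav1-null. Atp5md fell in the early AKR/J phase by 3.29 (SE 0.55, adjusted p = 0.00485), and was at -1.41 (adjusted p = 0.00888) without libraries 1 and 3 of d12. It rose in the late phases of AKR/J and C57BL/6J by 0.71 ± 0.2 (adjusted p = 0.0396) and 1.06 ± 0.28 (adjusted p = 0.047). On d17 in C57BL/6J it stood at 63, 148 and 90.4 CPM, the highest in library 2. Atp5j2, subunit f, fell in the early C57BL/6J phase by 0.78 (SE 0.16, adjusted p = 0.0286), and Atp5k, subunit e, fell in the late Cav1-null phase by 0.75 (SE 0.16, adjusted p = 0.00291), from 57.6, 63.7 and 43.1 CPM to 41.2, 29.5 and 26.9 CPM.

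Subunits alpha and beta of the catalytic head of ATP synthase were lower on d15 in both strains than in C57BL/6J. Atp5a1, subunit alpha, stood at 620, 628 and 627 CPM in C57BL/6J on d15 and at 406, 387 and 333 CPM in Cav1-null, lower, at -0.70 ± 0.07 (adjusted p = 1.98e-05), and at 458, 434 and 535 CPM in AKR/J, lower, at -0.33 ± 0.08 (adjusted p = 0.0173). Atp5b, subunit beta, was lower, at -0.48 ± 0.08 (adjusted p = 0.000356) and -0.31 ± 0.09 (adjusted p = 0.0282) in these comparisons. With the adjustment for coding length and GC content they were at -0.33 and -0.10 (Atp5a1) and at -0.06 and -0.04 (Atp5b), in Cav1-null and AKR/J. Atpif1, the inhibitor of ATP synthase and no member by its symbol, was higher on d15 by 1.42 ± 0.07 (adjusted p = 6.13e-08) in Cav1-null and by 0.82 ± 0.08 (adjusted p = 0.000315) in AKR/J, and fell in the late Cav1-null phase by 0.51 (SE 0.09, adjusted p = 0.00104).

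**Figure D3:**
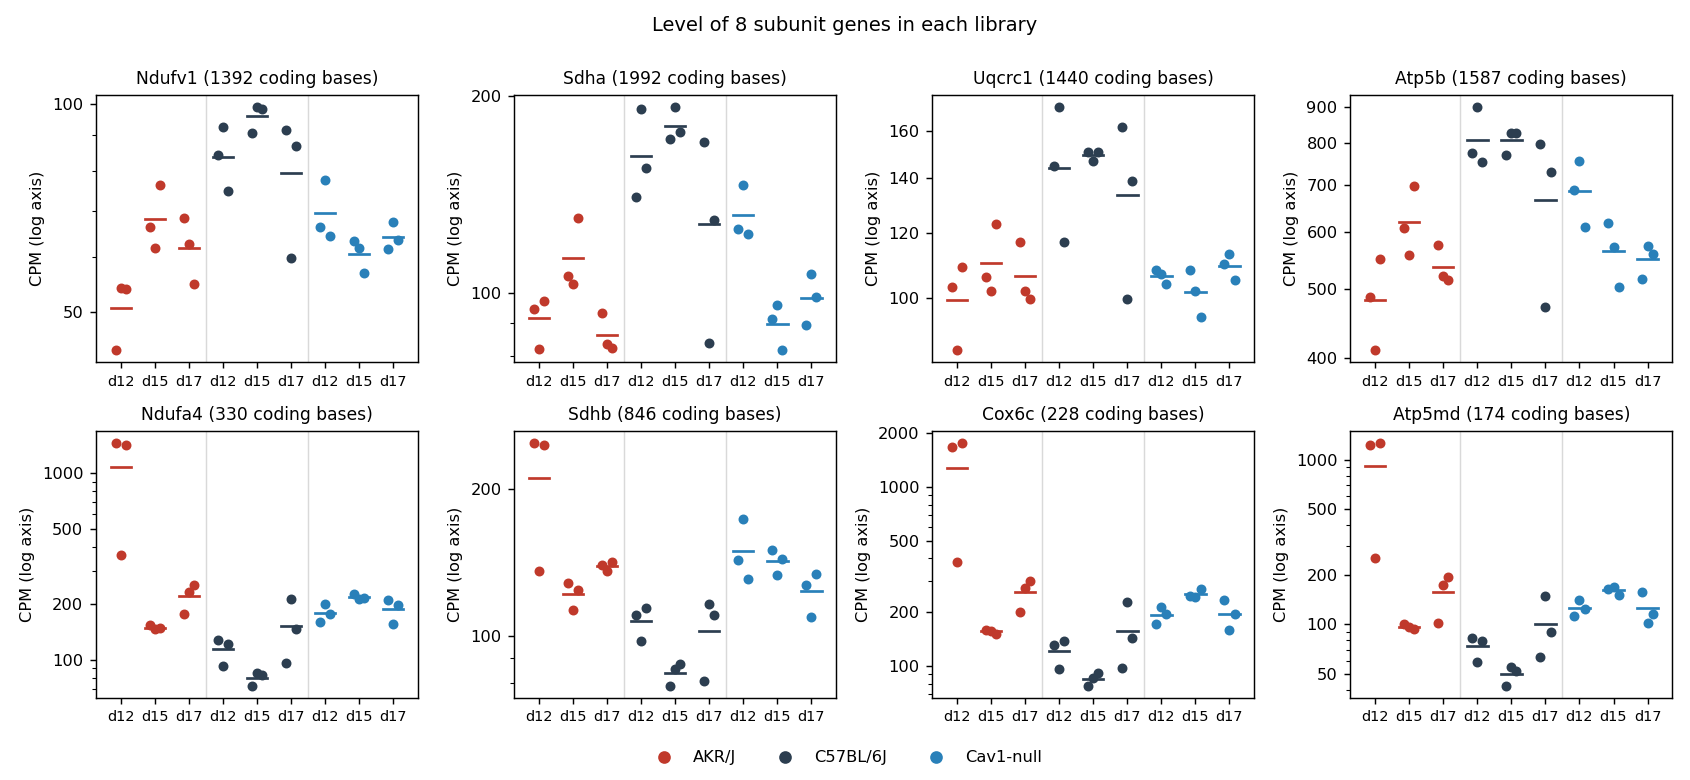
CPM (log axes) of 8 members in the 27 libraries, by strain and day, with a point per library and a short line at the mean of 3, with long members in the upper row and Ndufa4, Sdhb, Cox6c and Atp5md in the lower row. On d15 Ndufv1, Sdha, Uqcrc1 and Atp5b are higher in C57BL/6J than in the other strains, and the members of the lower row are lower there.

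The size of these changes went with the length of the coding sequence, which the choice of members did not use. Members with a coding length, 87 of 91, were put into classes of up to 400 bases (short, 40 members), over 400 to 900 bases (middle, 34) and over 900 bases (long, 13), chosen after values were seen. The median coding length was 442.5 bases in complex I, 676.5 in complex II, 333 in complex III, 277.5 in complex IV and 430.5 in complex V. On d15, Cav1-null differed from C57BL/6J by a median of 1.32 in short, 0.70 in middle and -0.19 in long members, and all other genes of these classes differed by 0.63, 0.16 and -0.28. Of the tested members, 35 of 36 short ones were higher and none was lower, while 2 of 13 long ones were higher and 6 were lower. In AKR/J on d15 the medians were 0.85, 0.45 and -0.08, against 0.45, 0.19 and -0.15 over other genes.

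In the early AKR/J phase the medians were -2.41, -1.18 and 0.20, against -1.14, -0.34 and 0.19 over other genes. Without libraries 1 and 3 of d12 they were -0.83, -0.21 and 0.44, against -0.28, 0.04 and 0.17, with 25 of 36 short members called lower and 3 of 13 long ones called higher. In the late phases they were 0.74, 0.36 and -0.09 in C57BL/6J and -0.35, -0.23 and -0.04 in Cav1-null. Spearman's rho between coding length and fold change over the 81 members, which share their libraries and scaling, was -0.73 in Cav1-null against C57BL/6J on d15, and -0.36 over other genes. It was 0.82 in the early AKR/J phase (0.32 over other genes), 0.77 without libraries 1 and 3 of d12 (0.09), and -0.76 in the late C57BL/6J phase (-0.25). Complex II has no short member. The short members of complexes I, III, IV and V had medians of 1.27, 1.33, 1.25 and 1.61 in Cav1-null against C57BL/6J on d15, a difference between complexes that was not tested, and the long members were at 0.03, -0.28 and -0.59 in complexes I, III and V.

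The ratio of the summed CPM of short to long members puts this in 1 value per library. It was 10.2, 3.39 and 9.41 in AKR/J on d12, 1.12 to 1.32 on d15 and 1.42 to 2.37 on d17. In C57BL/6J it was 0.648 to 1, 0.57 to 0.653, and then 0.725, 2.05 and 1.05 on d17, with the high value in library 2. In Cav1-null it was 1.34 to 1.54, 1.94 to 2.08 and 1.35 to 1.92. The 3 strains did not overlap on d12 or on d15, and on d17 all of them did. Without library 2 of C57BL/6J on d17, this strain lay below all libraries of the others.

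**Figure D4:**
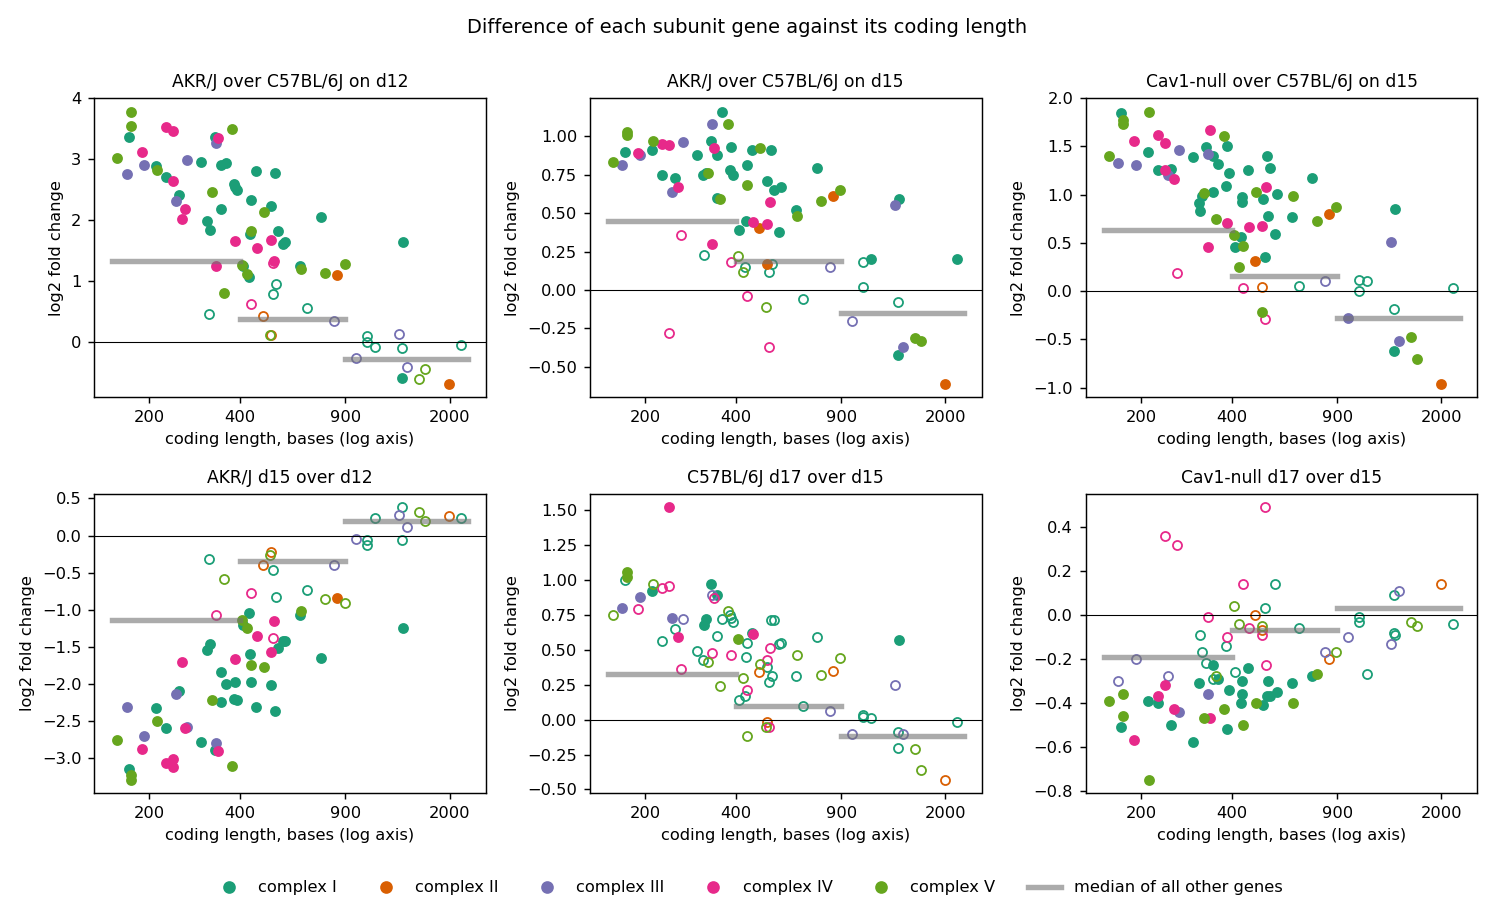
Log2 fold change of the tested members against the coding length in bases (log axis), coloured by complex, with filled points for called members, open points for members not called and grey segments for the median of all other genes in a length class. On d15, short members lie between 0.19 and 1.86 in Cav1-null and between -0.28 and 1.16 in AKR/J against C57BL/6J, and long members lie on both sides of 0, between -0.96 and 0.85 and between -0.61 and 0.59. The medians of other genes fall in the same order of classes.

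To see what remained beside length, genes were refitted with offsets for coding length and GC content, an adjustment added after values were seen. Only genes with a known coding length and GC content entered, 15223 in the early AKR/J phase against 19935 in the main fit. Shares of all genes given with the offsets are of these. Called members then numbered 51 in the early AKR/J phase (36.2% of all genes), 19 in its late phase (28.1%), 5 in the early C57BL/6J phase (23.4%) and 13 in its late phase (20.5%). They numbered 15 in the early Cav1-null phase (31.9%) and 26 in its late phase (39.7%). Against C57BL/6J they numbered 52 in AKR/J on d12 (23.4%), 48 on d15 (35.9%) and 68 in Cav1-null on d15 (58.0%). The medians of complexes I to V for Cav1-null on d15 became 0.65, -0.16, 0.56, 0.66 and 0.53, and those for AKR/J on d15 became 0.41, 0.01, 0.29, 0.24 and 0.45. Sdha remained lower and Sdhb higher on d15, at -0.69 and 0.94 in Cav1-null and at -0.45 and 0.67 in AKR/J. Atp5md, by contrast, went from 1.73 to 0.53 in Cav1-null and from 1.03 to 0.19 in AKR/J.

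Several subunits are made from alternative genes. The c subunit that forms the rotor ring of ATP synthase is encoded by Atp5g1, Atp5g2 and Atp5g3, which give the same mature protein. Reads of Atp5g2 as a percent of those of Atp5g3 were 48.7 ± 4.15 on d12, 37.9 ± 1.86 on d15 and 28.4 ± 2.73 on d17 in C57BL/6J (SD, n = 3). They were 63.3 ± 12.3, 44.2 ± 1.44 and 32.3 ± 2.02 in Cav1-null and 76.7 ± 26.5, 56.1 ± 3.17 and 44.6 ± 1.27 in AKR/J. In C57BL/6J and Cav1-null, no library of a day overlapped with a library of another day. In AKR/J the value was 107 percent in library 1 of d12 and 59.7 percent in library 2, just above the highest library of d15 (59.4 percent), and d17 lay below both days. Atp5g2 itself fell in the early phase of each strain, by 1.74 in AKR/J (adjusted p = 0.0195, and -0.33 with adjusted p = 0.148 without libraries 1 and 3 of d12), 0.67 in C57BL/6J (adjusted p = 0.0189) and 0.54 in Cav1-null (adjusted p = 0.011), and also in the late Cav1-null phase, by 0.50 (adjusted p = 0.000324). The share of Atp5g1 to Atp5g3 was higher on later days, from 43.4 ± 0.629 to 57.7 ± 4.97 percent in C57BL/6J, 47.7 ± 5.15 to 64.3 ± 4.83 percent in AKR/J and 55.7 ± 3.54 to 63.4 ± 1.43 percent in Cav1-null, and Atp5g1 rose in the late phases of AKR/J (0.52 ± 0.11, adjusted p = 0.0132) and C57BL/6J (0.58 ± 0.13, adjusted p = 0.0337). These 3 genes have coding lengths of 408, 438 and 423 bases and transcript lengths of 612, 731 and 988 bases. The part of length in their ratios was not tested.

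Among complex IV isoforms, the forms known from other tissues were at low levels. Cox4i2, the form of subunit 4 best known from lung, was at 0.344 to 0.675 percent of Cox4i1 in the group means, and Cox7a1, the form of heart and muscle, at 0.28 to 1.15 percent of Cox7a2. Cox6a2, Cox7b2, Cox8b and Cox8c were at 0 in some or all libraries, and Cox6a2 did not exceed a mean of 0.118 percent of Cox6a1. Cox6b2, known from testis, was at 6.05 ± 1.18 percent of Cox6b1 in AKR/J on d12, with 7.23 percent in library 2, and at 3.05 ± 0.973 on d15, and fell in this phase by 2.60 (SE 0.4, adjusted p = 0.00352), a value of -1.58 (adjusted p = 0.0555) without libraries 1 and 3 of d12. Cox7a2l has 519 and Cox7a2 339 coding bases, and the part of length in their ratio was not tested. Cox7a2l was at 139 ± 8.22 percent of Cox7a2 in C57BL/6J on d15, 109 ± 8.37 in AKR/J and 92 ± 2.97 in Cav1-null, without overlap. It was higher in Cav1-null on d15 by 1.08 ± 0.07 (adjusted p = 7.38e-07), beside 1.67 ± 0.07 for Cox7a2.

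**Figure D5:**
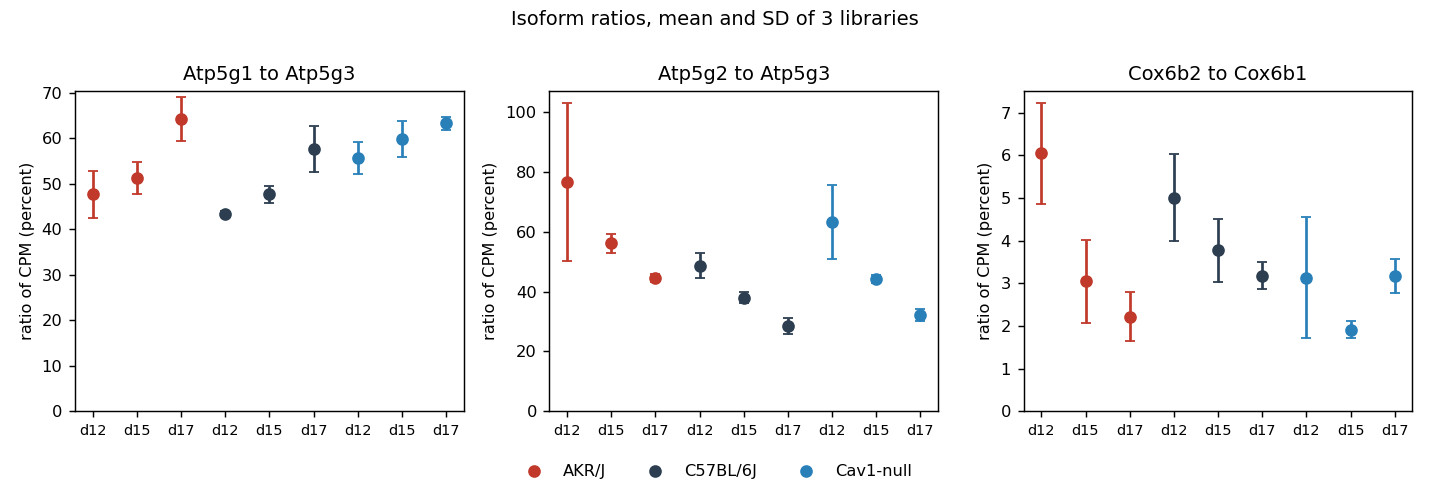
Reads of an isoform gene as a percent of those of its partner, by strain and day, with a point at the mean and bars for the SD of 3 libraries. Atp5g2 relative to Atp5g3 is lower on each later day in each strain, with group means from 28.4 to 76.7 percent.

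Spliced reads gave another readout of these libraries. The junction table held 250 junctions of 69 members, and at 53 splice sites in 32 genes at least 2 junctions shared a site with 50 or more reads in each group. The leading junction was at 0 in 1 or more libraries at 27 of these sites, where a 0 can stand for junctions that the authors removed, and these sites were not read further. At the other 26, the share of a junction differed by more than 5 percentage points between group means at 9 sites. Ndufv3, an accessory subunit of complex I, has an exon of 1092 bases on chromosome 17 from 31746284 to 31747375 (GRCm39) that most reads skipped, chosen for description after its values were seen. Reads entering this exon were 7.13 ± 2.12 percent in C57BL/6J on d12, 6.77 ± 2.71 on d15 and 3.30 ± 0.304 on d17, 4.72 ± 1.41, 2.49 ± 1.02 and 2.21 ± 0.642 percent in Cav1-null, and 1.61 ± 0.725, 4.32 ± 0.523 and 3.00 ± 1.4 percent in AKR/J (SD, n = 3). C57BL/6J and Cav1-null did not overlap on d15, and their other days were close or overlapped. Ndufv3 was put in the long class by the annotated coding sequence with this exon, of 1404 bases. It was higher in Cav1-null on d15 by 0.85 ± 0.08 (adjusted p = 5.8e-06), the highest value of the long members of complex I. Their median was 0.03, beside 0.92 in the middle and 1.27 in the short members of this complex.

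Subunits encoded in the mitochondrial genome were tested for complexes I, III and IV, and those of complex V were not analysed here. The fits held 7 or 8 of the listed subunits by comparison, so that some of complexes I, III and IV were not tested either. All 7 tested fell in the early AKR/J phase and rose in its late phase, and all 7 were higher in AKR/J on d12 (mt-Nd1 3.29 ± 0.64, adjusted p = 0.0122) and on d15 (mt-Co1 0.94 ± 0.12, adjusted p = 0.00104). Without libraries 1 and 3 of d12, 2 of 7 fell in the early phase and 0 were called on d12, where mt-Nd1 was at 1.78 (adjusted p = 0.212). With the offsets for length and GC content, 3 of 7 were higher and 1 was lower in AKR/J on d15, and 5 fell in its early and 4 rose in its late phase. All 8 tested were higher in Cav1-null on d15 (mt-Co1 1.44 ± 0.07, adjusted p = 9.54e-08), and 5 were higher and 1 was lower with the offsets. In the late Cav1-null phase mt-Nd5 (0.53 ± 0.11, adjusted p = 0.00296) and mt-Nd6 (0.44 ± 0.11, adjusted p = 0.00691) rose and none of the other 6 was called, and a difference from the nuclear members was not tested. Their summed level was 29500 ± 2860 CPM on d15 and 32400 ± 6370 CPM on d17, with overlap.

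Assembly factors, which build the complexes without being part of them, were counted in Cav1-null against C57BL/6J on d15. Of those of complex I, 9 of 15 were higher and 1 was lower, where 26.8% of all genes were higher and 31.8% were lower (Ndufaf2 1.28 ± 0.1, adjusted p = 2.54e-06), and of complex II 3 of 4 were higher (Sdhaf4 1.34 ± 0.11, adjusted p = 3.12e-06). For complexes III, IV and V, 4 of 6 (Uqcc2 1.27 ± 0.11, adjusted p = 4e-06), 14 of 22 (Coa6 1.31 ± 0.13, adjusted p = 8.85e-06) and 3 of 5 (Fmc1 1.21 ± 0.17, adjusted p = 0.000161) were higher, and 0, 2 and 0 were lower. With the offsets, 10, 1, 3, 7 and 3 factors of complexes I to V were higher and 2, 0, 1, 4 and 0 were lower. Of all genes fitted with the offsets, 58.0% were called in either direction. In AKR/J on d15, 7, 3, 2, 13 and 2 of these factors were higher for complexes I to V (18.8% of all genes), and 2 of complex IV were lower (22.3%). With the offsets these were 3, 1, 1, 3 and 1 higher, and 2 of complex IV lower, where 35.9% of the genes fitted were called in either direction.

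Regulators of mitochondrial biogenesis were called in both directions. Ppargc1a, the coactivator PGC-1alpha, rose early in AKR/J (1.5 ± 0.31, adjusted p = 0.00939), C57BL/6J (1.18 ± 0.2, adjusted p = 0.0206) and Cav1-null (0.87 ± 0.15, adjusted p = 0.00448), with 1.63 (adjusted p = 0.0209) in AKR/J without libraries 1 and 3 of d12, and again in the late phases of AKR/J and Cav1-null (0.60 and 0.50). Nrf1, whose protein binds the GCGCATGC core, fell in the late phase of each strain, by 0.52 in AKR/J (adjusted p = 0.00308), 0.51 in C57BL/6J (adjusted p = 0.0337) and 0.26 in Cav1-null (adjusted p = 0.03). Tfam, which packs and transcribes mitochondrial DNA, was higher on d15 in Cav1-null by 0.54 ± 0.06 (adjusted p = 2.74e-05) and in AKR/J by 0.47 ± 0.07 (adjusted p = 0.00132), and Yy1 was lower, at -0.92 ± 0.06 (adjusted p = 3.5e-07) and -0.56 ± 0.08 (adjusted p = 0.00174). Of the 21 regulators, 4 were higher (26.8% of all genes) and 9 were lower (31.8%) in Cav1-null on d15, the largest value being that of Esrrb, -1.79 ± 0.16 (adjusted p = 5.62e-06). With the offsets 8 were higher and 6 were lower, where 58.0% of the genes fitted were called in either direction.

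Glycolytic genes were mostly lower in Cav1-null than in C57BL/6J on d15. On this day, 16 of 18 were lower (31.8% of all genes) and 1 was higher (26.8%), with Hk2 at -1.80 ± 0.2 (adjusted p = 2.97e-05), and 12 of 18 rose in the late phase (14.5% of all genes) while none fell (Gpi1 1.03 ± 0.12, adjusted p = 3.37e-05). These counts are of gene identifiers, which outnumber the listed symbols, so that a symbol can count more than once. In the early Cav1-null phase 3 rose and 9 fell, and 0 were called on d12 or d17 against C57BL/6J. With the offsets the counts were 11 lower and 2 higher on d15, and 6 lower and 3 higher in AKR/J. Of the genes fitted with the offsets, 58.0% and 35.9% were called in either direction in these comparisons. In AKR/J on d15, 10 of 18 were lower and 1 was higher (Hk1 -1.62 ± 0.2, adjusted p = 0.000838), and in its early phase 6 rose and 1 fell (Aldoc 3.61 ± 0.34, adjusted p = 0.000922), or 6 and 0 without libraries 1 and 3 of d12, where Aldoc was at 3.52 (adjusted p = 0.0132). Genes of the TCA cycle were divided on d15, with 5 of 17 higher and 8 lower in Cav1-null (26.8% and 31.8% of all genes). In AKR/J 7 were higher and 5 were lower (18.8% and 22.3% of all genes). Ogdh was lower in both strains (-1.42 ± 0.07, adjusted p = 6.34e-08, and -1.12 ± 0.09, adjusted p = 0.000242).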

How the data were processed

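RNA-seq of 27 whole fetal brains was used. The submitters' processing notes name FastQC, cutadapt, fastp, STAR, bedtools and edgeR and the build GRCm39, without versions. The deposited gene table holds raw read counts per gene as the authors made them, and the deposited splice table holds read counts per junction and library, after junctions with multi-mapped reads, short overhangs or few reads were left out. The counting tool and its handling of strand and of multi-mapped reads are not given in the sources used here, so that members with near-identical copies in the genome are uncertain.

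Counts were filtered (filterByExpr), TMM scaled and tested with edgeR 4.0.16 (limma 3.58.1, R 4.3.3) by quasi-likelihood, 2 groups of 3 libraries at a time or an interaction over 12 libraries, with Benjamini-Hochberg adjustment over all genes tested and calls at an adjusted p under 0.05. Fold changes are log2 and errors are SE unless SD is stated. Libraries held 26363697 to 39759702 reads on genes, and replicates differed by more than counting error. DESeq2 1.42.0 and other settings were alternatives. The offsets for coding length and GC content were taken from genes that are no members and, like the fit without libraries 1 and 3 of AKR/J on d12, were added after seeing the data. Coding lengths and positions are from GENCODE vM39 (GRCm39), promoters from RefSeq (GRCm38.p6). The members and lists were chosen with earlier results of these data known. Named members are the called member with the largest fold change per complex in each change between days at an average log2 CPM of at least 3, isoform pairs, members called in the same direction on all 3 days against C57BL/6J (0 in AKR/J and 0 in Cav1-null), members called in an interaction, core subunits, Ndufa4, Atpif1 and Cav1, and the leading gene of each list. Other members named in the comparisons of strains were chosen after their values were seen. The fits were tested on simulated data with 200 genes changed 4-fold, of which 87.0% were recovered for Cav1-null over C57BL/6J on d15 and 45.5% for the early interaction of AKR/J, and 9.84% and 5.21% of the calls there were of unchanged genes. 1 item covered by the naming rule is not reported here.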

Additional observations from a re-analysis of the deposited data

Results flagged for a closer look

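The change from d15 to d17 differed between Cav1-null and C57BL/6J in Cox6b1 of complex IV, by -1.05 on the log2 scale (edgeR, adjusted p = 0.0341), and in Atp5o of complex V, by -0.89 (adjusted p = 0.0341). Each was picked out because the interaction itself passed the test. All 3 libraries of d17 lay above all 3 of d15 in C57BL/6J and below them in Cav1-null for both genes. With a library left out in turn, the difference stayed between -1.08 and -0.90 in Cox6b1, with adjusted p from 0.000122 to 0.144, and between -0.90 and -0.80 in Atp5o, with adjusted p from 0.00132 to 0.144. With offsets for coding length and GC content the values were -0.57 and -0.86 (adjusted p = 0.0691 for both).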

How the results depend on the processing

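Of the counts of called members, those of AKR/J and Cav1-null over C57BL/6J on d15 held best, at 54 to 65 and 68 to 71 with a library left out, although 1 model of all 27 libraries gave 21 for AKR/J. With a library left out, the counts ran from 33 to 70, 0 to 56 and 2 to 22 in the early phase (AKR/J, then C57BL/6J, then Cav1-null) and from 2 to 41, 0 to 58 and 19 to 45 in the late phase. They ran from 0 to 70 on d12 and 0 to 42 on d17 for AKR/J over C57BL/6J, and from 0 to 19 and 0 to 8 for Cav1-null. For the interactions they ran from 0 to 62 (early) and 0 to 0 (late) in AKR/J and from 0 to 34 and 0 to 57 in Cav1-null. The cause was not tested.

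Without both doubtful libraries of AKR/J on d12, the counts were 36 (early phase) and 0 (d12 against C57BL/6J). AKR/J on d12 then had 1 library, assumed to vary like the other group. The single model of all libraries gave 2 in the late AKR/J phase, 1 and 4 in the early and late C57BL/6J phase, 3 and 0 in those of Cav1-null, 1 for Cav1-null on d12, and 42 and 0 for the early interaction of AKR/J and the late one of Cav1-null. DESeq2 gave 29 in the late C57BL/6J phase, 2 for AKR/J on d17, 32 for Cav1-null on d12, and 36, 20 and 44 for the early interactions of AKR/J and Cav1-null and the late one of Cav1-null. Without a filter on low counts these were 27, 2, 12, 31, 3 and 38. RLE size factors gave 12 and the offsets 5 in the early C57BL/6J phase, library sizes alone gave 28 in its late phase and 5 in the late interaction of Cav1-null, where the offsets gave 0. For fits without a filter, with RLE size factors, with library sizes alone or with a replicate block (below), the share of all genes called is not given. A move of all genes cannot be told apart there. Library sizes alone moved the median of all genes from 0.02 to 0.46 in the early AKR/J phase and from 0.02 to -0.38 for AKR/J on d12.

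With the offsets, values turned for Uqcrc1 (0.03 in AKR/J on d15 and 0.06 in Cav1-null), Cyc1 (0.07), Ndufb2 (-0.08) and Atp5g3 (-0.03), all but the first in Cav1-null over C57BL/6J on d15.

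The deviations of same-numbered libraries from their group means correlated at -0.5 to 0.43, and in no comparison above 0.1 in all 3 pairs, so that the replicate numbers were not taken to pair the samples. With the replicate number as a block, the counts were 11 in the late AKR/J phase, 0 and 8 in the early phases of C57BL/6J and Cav1-null, 4 for AKR/J on d17 and 0 in the late interaction of Cav1-null, and the other counts stayed within 1.5 times.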
